A study of Mus musculus with 23 samples.

Results

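The genes followed here belong to the early response to growth factors and stress. They were Fos, Fosb, Fosl1, Fosl2, Jun, Junb and Jund, which encode subunits of the transcription factor AP-1, and Egr1, Ier2 and Atf3, which are switched on with them. The members were taken by name, through their Ensembl gene identifiers, and 10 of the 55401 rows of the deposited count matrix belonged to them. All 10 passed the filter on low counts that left 24440 genes for testing.

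AP-1 is a dimer of basic leucine zipper proteins. A Fos protein (Fos, Fosb, Fosl1, Fosl2) pairs with a Jun protein (Jun, Junb, Jund), and Jun proteins also pair with each other. Immediate early genes are transcribed within minutes of a stimulus without new protein synthesis, from promoters that answer to MAP kinase signalling through serum response factor and its partners, and their mRNAs are usually short-lived. Activated Ras, which the implanted cells carry, is a known upstream activator of the pathway, and Fosl1 and Jun are well-known targets of sustained Ras signalling in tumour cells.

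The series measured polyadenylated RNA in 23 libraries made from sections of tumours. The tumours grew under the skin of male C57/BL6 mice 8 to 10 weeks of age from TC2Ras cells, a line made from the mouse prostate adenocarcinoma line TRAMP-C2 by lentiviral transfer of activated H-ras. Every host received a plasmid by ultrasound-aided transfer into the tibialis anterior muscle (10 µg per muscle). Tumour tissue was then exposed ex vivo to 1 of 6 conditions, whose doses and times the labels do not state.

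The IL27v groups received pTSTA-IL27pepL, which encodes interleukin-27 (a cytokine that acts on T cells and other immune cells) with a short added peptide. They comprised 2 libraries each with ex vivo cabozantinib (an inhibitor of receptor tyrosine kinases), docetaxel (a drug that stabilises microtubules), anti-PD-L1 (an antibody against an immune checkpoint ligand), cabozantinib plus IL-27, and media, and 1 library with IL-27 alone. The EV groups received pTSTA-ctrl, labelled the empty vector, and comprised 2 libraries with each of the same 6 conditions. Nothing says that the replicates came from separate animals, so p-values measure the spread between these libraries, which may be technical.

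Libraries held 47641781 to 83088346 estimated counts, so a level of 1 CPM (counts scaled to library size with TMM factors) stood for 36.3 to 86.5 counts. The labelled tissue was set against prostate epithelial markers: 9 of 11 passed the filter, and Krt8 reached 1.21 to 122 CPM, whereas Pbsn was at 0 in all 23 libraries. Other tissue signals divided the libraries. Set B, of 5 libraries, held transcripts of the neutrophil granule gene Ngp at 14.1 to 18.8 CPM together with a summed level of 15 skeletal muscle markers of 425 to 638 CPM (both IL27v media libraries, both EV libraries with cabozantinib plus IL-27, and EV anti-PD-L1 replicate 2). Set C, of 8 IL27v libraries, held muscle markers at 553 to 867 CPM with no Ngp. Set A, the other 10, of which 9 were EV libraries, held muscle markers at 1.27 to 24.6 CPM. These sets follow from marker levels and are not groups of the study. Ngp does not stand for neutrophil markers in general. Summed over 12 neutrophil markers, set B held 53.6 to 99.9 CPM, and the IL27v docetaxel libraries, with Ngp at 0, held 239 and 269 CPM. The tenth library of set A, IL27v docetaxel replicate 1, had 27.2% of its counts in an rRNA gene and the smallest total. In bulk RNA, fewer cells of a type and less RNA per cell cannot be told apart.

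The 10 genes differ in their content of G and C, a property that went with fold changes across all genes. In the GENCODE M21 annotation of GRCm38, transcript GC content was 67.1% for Jund, 62.6% for Junb, 60.9% for Ier2, 58.5% for Fosl1, 57.3% for Egr1, 56.0% for Fosb, 55.5% for Jun, 53.1% for Fosl2, 52.2% for Atf3 and 51.9% for Fos. Jund stood at percentile 99.5, Junb at 98.4 and Ier2 at 97.4 of all annotated rows. Junb (ENSMUSG00000052837) lies at chr8:84974484-84978718 on the minus strand, Jund (ENSMUSG00000071076) at chr8:70698949-70700616 on the plus strand and Ier2 (ENSMUSG00000053560) at chr8:84661331-84662852 on the minus strand. Jun (chr4:95049034-95052222, minus strand), Fosb (chr7:19302696-19310051, minus strand), Atf3 (chr1:191170296-191218039, minus strand), Fos (chr12:85473890-85477273, plus strand), Fosl1 (chr19:5447547-5455946, plus strand) and Fosl2 (chr5:32135801-32157842, plus strand) lie on other chromosomes. Jun, Junb, Jund and Ier2 each have a single exon. The stretch of 100 coding bases richest in G and C is printed for the 3 most GC-rich members and for Jun, Fos and Atf3, in the sense of the mRNA, with G and C in capitals.
Jund: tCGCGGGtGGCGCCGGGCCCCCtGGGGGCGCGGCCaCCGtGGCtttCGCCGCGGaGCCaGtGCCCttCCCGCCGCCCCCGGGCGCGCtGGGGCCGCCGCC
Junb: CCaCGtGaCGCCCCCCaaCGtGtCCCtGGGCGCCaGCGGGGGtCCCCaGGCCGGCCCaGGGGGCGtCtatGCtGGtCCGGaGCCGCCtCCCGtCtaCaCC
Ier2: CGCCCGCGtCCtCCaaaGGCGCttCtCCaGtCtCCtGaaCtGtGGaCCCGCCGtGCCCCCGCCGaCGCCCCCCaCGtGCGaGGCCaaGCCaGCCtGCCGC
Jun: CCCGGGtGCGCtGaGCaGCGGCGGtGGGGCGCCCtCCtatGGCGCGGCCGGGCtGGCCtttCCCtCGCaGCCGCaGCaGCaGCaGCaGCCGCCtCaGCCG
Fos: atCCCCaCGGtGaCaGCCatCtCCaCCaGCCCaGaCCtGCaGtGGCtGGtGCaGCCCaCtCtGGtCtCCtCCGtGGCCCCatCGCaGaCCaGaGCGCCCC
Atf3: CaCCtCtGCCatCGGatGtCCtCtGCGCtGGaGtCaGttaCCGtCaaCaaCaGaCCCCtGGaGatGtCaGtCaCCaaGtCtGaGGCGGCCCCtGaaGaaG
These stretches hold 86.0% G and C in Jund (chr8:70699626-70699725, plus strand), 76.0% in Junb (chr8:84977890-84977989, minus strand), 74.0% in Ier2 (chr8:84662137-84662236, minus strand), 78.0% in Jun (chr4:95050642-95050741, minus strand), 68.0% in Fos (chr12:85474974-85475073, plus strand) and 58.0% in Atf3, where the stretch crosses an intron on the minus strand of chromosome 1. Windows of 100 bases with at least 70% G and C made up 50.0% of those in Jund, 21.9% in Junb, 15.8% in Egr1 and 13.5% in Ier2, and less in the other members. An antisense gene overlaps Junb (Prdx2), Jun (Junos), Jund (Gm11175), Fosl1 (Ccdc85b) and Atf3 (Gm24748). Whether the counting used the strand is not stated, so reads of these pairs may be mixed.

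Levels were set between members per kilobase of transcript. Fosl1, the Fos-family subunit with no activation domain of its own, was the most abundant, with a median of 140 CPM per kb over the 23 libraries. Atf3 (30.9), Egr1 (28.0), Jun (20.6), Fosl2 (18.8) and Junb (16.8) followed in CPM per kb, then Ier2 (9.20), Fos (8.71), Fosb (5.17) and Jund (2.41). Over the libraries the ranges of neighbours in that order overlapped in every case. The part of GC content in levels compared between genes was not tested.

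The spread over the libraries differed widely between the members. Junb ran from 0.267 to 281 CPM, a 1050-fold range, Ier2 spanned 210-fold and Jund 162-fold. The ranges were 21.6-fold for Fosl1, 11.4-fold for Fosb, 9.77-fold for Jun, 7.43-fold for Fos, 5.36-fold for Atf3, 3.44-fold for Egr1 and 3.24-fold for Fosl2. The 3 members with the widest ranges are the 3 with the highest GC content. The lowest values rest on few reads: Junb had 18 and 55 counts in the IL27v media libraries, Ier2 29 and 132, and Jund 56 and 43.

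**Figure D1:**
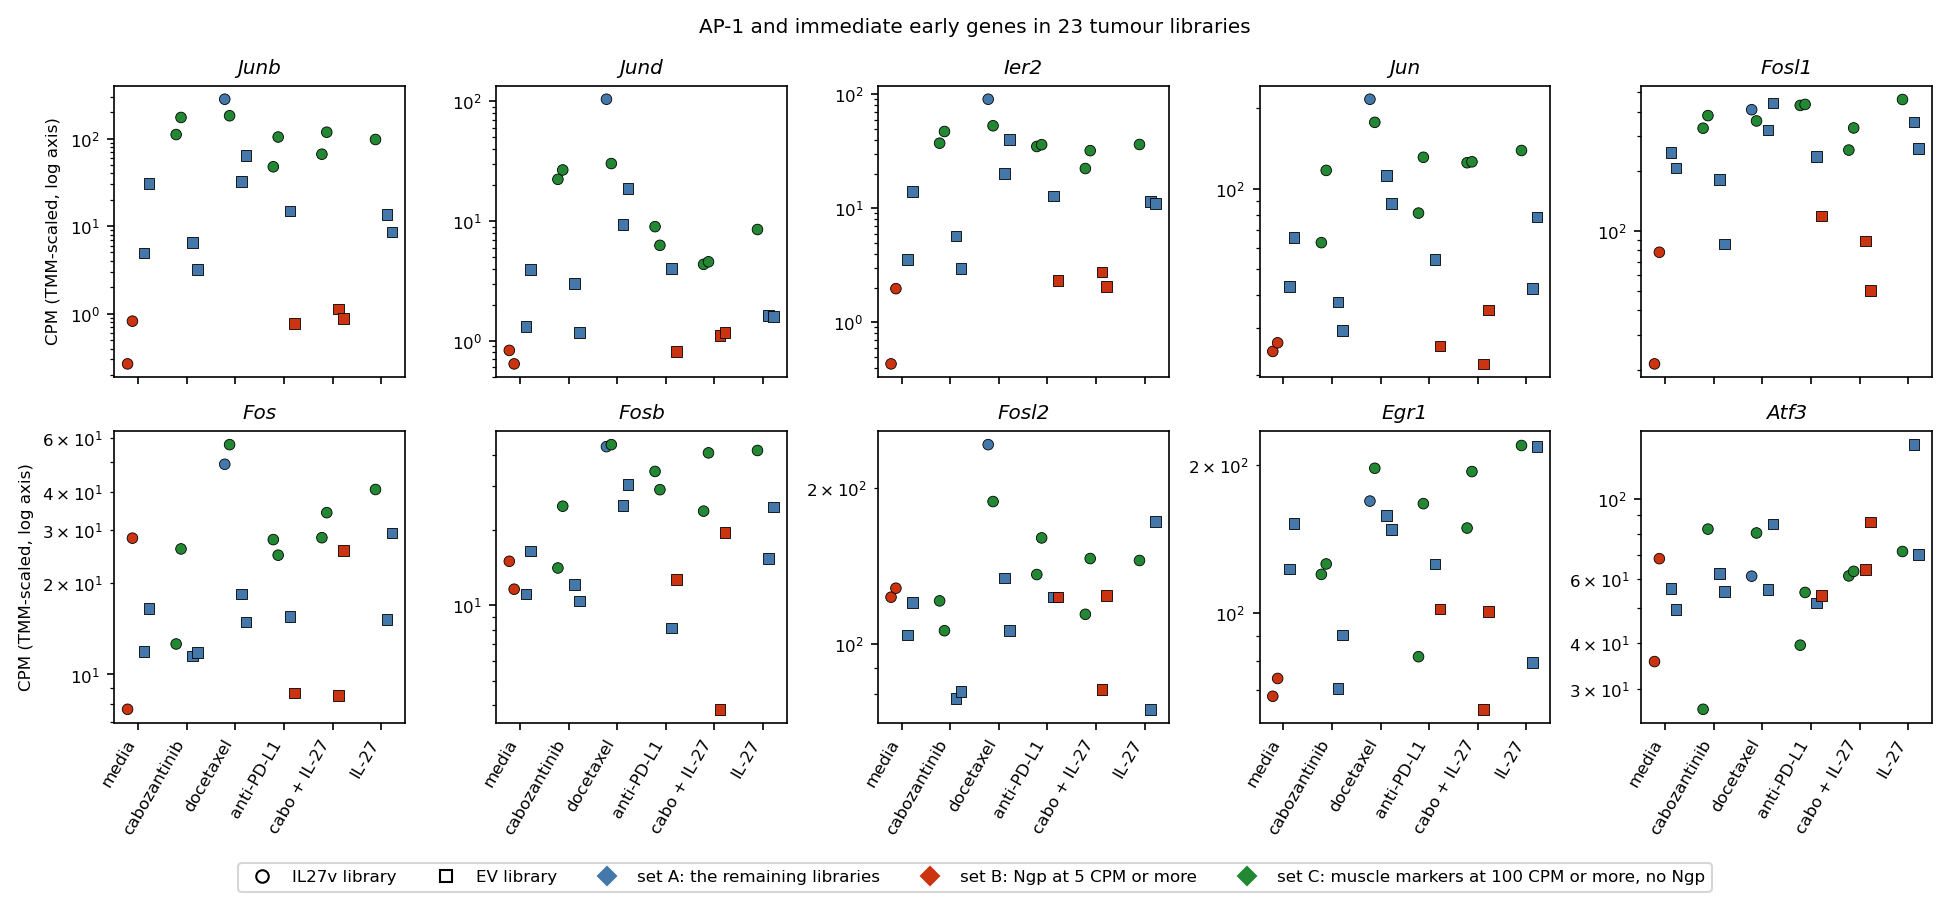
CPM (log axis, each panel with its own range) of the 10 genes in each library, by ex vivo condition, with IL27v libraries as circles left of EV libraries as squares, and colour for the set of libraries defined by muscle and Ngp signal. Junb and Ier2 are lowest in the 5 set B libraries, at 0.267 to 1.13 CPM and 0.431 to 2.76 CPM, whereas Atf3 and Fosl2 show no such separation.

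The first comparison set tumours of IL27v hosts against those of EV hosts, averaged over the 6 ex vivo conditions. Junb, Jund, Ier2, Jun, Fos and Fosb, 6 of the 10 genes, rose with the IL-27 vector (quasi-likelihood test of edgeR, adjusted p under 0.05 by the Benjamini-Hochberg method), where 2.95% of all tested genes were called, 2.28% higher and 0.671% lower. None fell. The median log2 fold change was 0.93 over the 10 genes and 0.01 over all genes tested. In an additive model with library sets A, B and C as a term none of the 10 was called (Junb 1.30, edgeR adjusted p = 0.61). Without IL27v docetaxel replicate 1 as well, the estimates of Junb, Jund, Ier2 and Jun were below 0. That fit could separate the vector from the sets only through set B, so it does not settle the direction. In media alone, the values of the 3 Jun genes, Ier2, Fosl1 and Egr1 lay lower in IL27v than in EV libraries.

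Junb, a Jun-family subunit that often restrains proliferation, had the largest fold change of the 10. It stood at 281 and 182 CPM with docetaxel in IL27v libraries, against 32.2 and 64.1 CPM in EV libraries. With cabozantinib it stood at 111 and 174 CPM in IL27v against 6.53 and 3.17 CPM in EV libraries, and with anti-PD-L1 at 47.6 and 104 CPM in IL27v against 14.8 and 0.769 CPM in EV libraries. In every exposed condition all IL27v libraries lay above all EV libraries. With cabozantinib plus IL-27 the values were 66.2 and 118 CPM in IL27v and 1.13 and 0.884 CPM in EV libraries, with IL-27 alone 99.6 CPM in IL27v and 13.6 and 8.59 CPM in EV libraries. In media they were 0.267 and 0.821 CPM in IL27v and 4.95 and 30.4 CPM in EV libraries, so the order was turned round there. The averaged log2 fold change was 2.51 ± 0.41 (SE; edgeR adjusted p = 0.0035).

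Jund, the Jun-family subunit that most cells express at rest, was scarce here. With docetaxel it stood at 104 and 30.2 CPM in IL27v and 9.40 and 18.6 CPM in EV libraries, and with cabozantinib at 22.3 and 26.7 CPM in IL27v and 3.00 and 1.17 CPM in EV libraries. With anti-PD-L1 the values were 8.98 and 6.27 CPM in IL27v and 4.02 and 0.812 CPM in EV libraries. These 3 conditions show no overlap, and IL27v docetaxel replicate 1 stands far above every other library. With cabozantinib plus IL-27 the values were 4.35 and 4.57 CPM in IL27v and 1.11 and 1.17 CPM in EV libraries, with IL-27 alone 8.63 CPM in IL27v and 1.62 and 1.59 CPM in EV libraries. In media, IL27v libraries (0.832 and 0.642 CPM) lay below EV libraries (1.31 and 3.93 CPM). The averaged log2 fold change was 1.67 ± 0.30 (edgeR adjusted p = 0.0056).

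Ier2 encodes a short immediate early protein. Its values with docetaxel were 90.4 and 52.9 CPM in IL27v and 20.2 and 39.9 CPM in EV libraries, with cabozantinib 37.2 and 47.1 CPM in IL27v and 5.71 and 2.95 CPM in EV libraries. With anti-PD-L1 they were 34.8 and 36.1 CPM in IL27v and 12.8 and 2.32 CPM in EV libraries. The IL27v libraries were the higher ones in these 3 conditions, by the smallest margin with docetaxel. With cabozantinib plus IL-27 they were 22.3 and 32.0 CPM in IL27v and 2.76 and 2.07 CPM in EV libraries, with IL-27 alone 36.3 CPM in IL27v and 11.5 and 11.0 CPM in EV libraries. In media the IL27v libraries, at 0.431 and 1.97 CPM, lay below the EV libraries, at 3.54 and 14.0 CPM. The averaged log2 fold change was 1.51 ± 0.31 (edgeR adjusted p = 0.014).

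Jun, the founding member of its family, had a narrower range. Its values were 216 and 177 CPM with docetaxel in IL27v, against 112 and 87.9 CPM in EV libraries, and 62.8 and 117 CPM with cabozantinib in IL27v, against 37.7 and 29.5 CPM in EV libraries. With anti-PD-L1 it stood at 81.0 and 131 CPM in IL27v and 54.2 and 25.8 CPM in EV libraries. With cabozantinib plus IL-27 it stood at 125 and 126 CPM in IL27v and 22.1 and 35.2 CPM in EV libraries. All 5 exposed conditions held higher values in IL27v than in EV libraries. With IL-27 alone the values were 139 CPM in IL27v and 42.2 and 78.4 CPM in EV libraries, and in media 24.6 and 26.5 CPM in IL27v and 43.1 and 65.7 CPM in EV libraries, lower with the IL-27 vector. The averaged log2 fold change was 1.01 ± 0.18 (edgeR adjusted p = 0.0053).

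Fos and Fosb, the Fos-family subunits that carry their own activation domains, also rose, and in media their values overlapped. Fos ran from 7.68 to 57.1 CPM with a median of 28.1 CPM over the 11 IL27v libraries, and from 8.51 to 29.2 CPM with a median of 15.1 CPM over the 12 EV libraries. In the docetaxel libraries it stood at 49.2 and 57.1 CPM in IL27v, clear of 18.4 and 14.9 CPM in EV, whereas in media 7.68 and 28.1 CPM in IL27v spanned 11.9 and 16.5 CPM in EV libraries. Its averaged log2 fold change was 0.93 ± 0.24 (edgeR adjusted p = 0.043). Fosb ran from 11.6 to 43.9 CPM with a median of 29.0 CPM in IL27v libraries, and from 3.84 to 30.5 CPM with a median of 14.1 CPM in EV libraries. In media it stood at 15.0 and 11.6 CPM in IL27v and 11.1 and 16.5 CPM in EV libraries, which overlap, and its averaged log2 fold change was 0.92 ± 0.23 (edgeR adjusted p = 0.038). For both genes all IL27v libraries lay above all EV libraries in each of the 5 exposed conditions. After leaving out each library in turn, Fos was called in 5 of 23 fits and Fosb in 7, whereas Junb, Jund, Ier2 and Jun were called in all 23. In the additive model of vector and condition, by contrast, Fos (edgeR adjusted p = 0.033) and Fosb (0.04) were called with Jun and Jund, whereas Junb (0.07) and Ier2 (0.11) were not.

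Fosl1, Fosl2, Egr1 and Atf3 did not pass the test. Fosl1 ran from 21.4 to 462 CPM (median 359 CPM) in IL27v and from 50.2 to 442 CPM (median 223 CPM) in EV libraries, with a log2 fold change of 0.53 ± 0.21 (edgeR adjusted p = 0.22). Fosl2, which like Fosl1 lacks a strong activation domain, had medians of 136 CPM in IL27v and 113 CPM in EV libraries, with a log2 fold change of 0.39 ± 0.14 (edgeR adjusted p = 0.16). Egr1, a zinc finger factor induced through serum response elements, had medians of 149 CPM in IL27v and 112 CPM in EV libraries, with a log2 fold change of 0.28 ± 0.17 (edgeR adjusted p = 0.53). Atf3, a stress-induced partner that mostly represses, had medians of 61.3 CPM in IL27v and 59.4 CPM in EV libraries, with a log2 fold change of -0.19 ± 0.19 (edgeR adjusted p = 0.86). Over all conditions together the ranges of the vectors overlapped in these 4, as they did in the called genes. Within conditions, IL27v libraries lay above EV libraries without overlap in 4 exposed conditions for Fosl1 and for Egr1. Fosl2 did so in 3 exposed conditions and also in media, whereas Atf3 did so in none. With cabozantinib plus IL-27, Atf3 was lower without overlap, at 61.3 and 63.1 CPM in IL27v and 63.8 and 86.3 CPM in EV libraries. The share of all tested genes was not taken for these counts of conditions, so they stand without a background. A p over the threshold does not show that the vectors were equal.

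**Figure D2:**
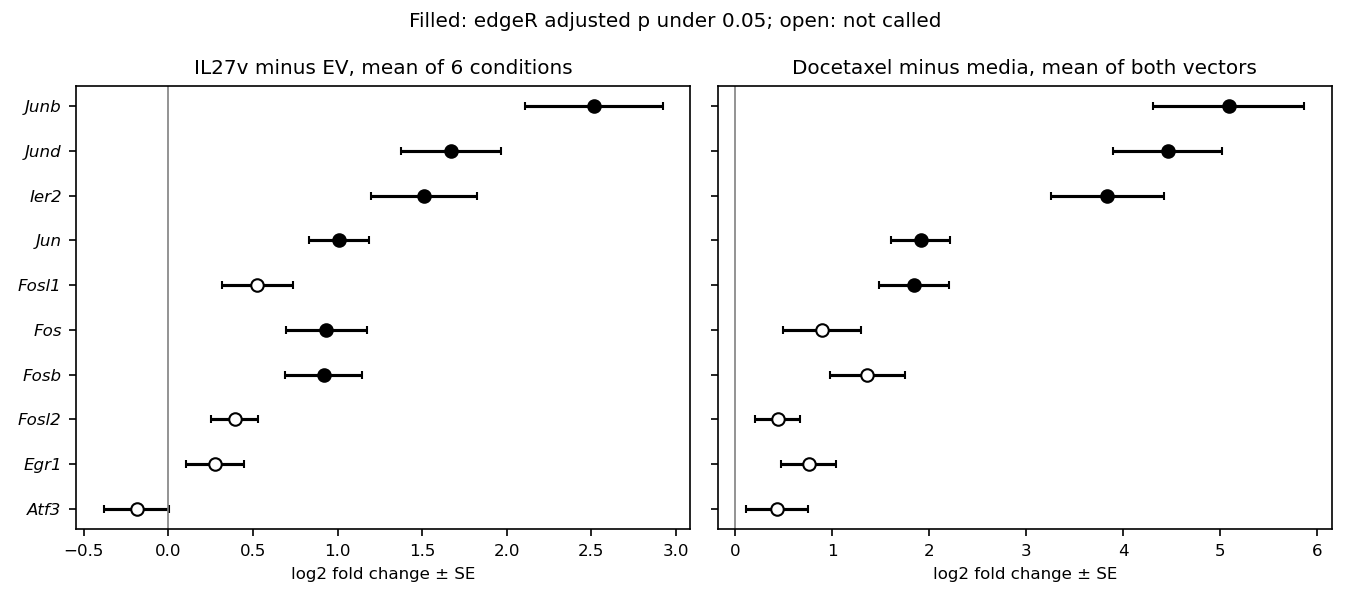
Log2 fold changes of the 10 genes with their standard errors, for IL27v against EV averaged over 6 conditions (left) and for docetaxel against media averaged over both vectors (right), where filled points are called by edgeR at an adjusted p under 0.05. Junb lies farthest to the right in both, at 2.51 and 5.09, and Atf3 alone lies below 0 for the vectors, at -0.19.

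Tissue signals moved with the vectors. The 15 muscle markers were all called higher in IL27v, with summed levels of 24.6 to 867 CPM in IL27v and 1.27 to 501 CPM in EV libraries, and 6 of 11 keratinocyte markers were called higher, with sums of 5.62 to 4440 CPM in IL27v and 5.67 to 18.8 CPM in EV libraries. None of 13 lymphocyte markers was called by edgeR. Its unadjusted p lay under 0.05 for 5 of them and for 3538 of all 24440 tested genes. The sums of lymphocyte markers were 0.784 to 13.3 CPM in IL27v and 0.312 to 10.8 CPM in EV libraries, and Ms4a1, a B cell marker, was at 0 in 19 libraries. Within set B, the IL27v libraries had Junb at 0.267 and 0.821 CPM and the EV libraries at 0.769, 1.13 and 0.884 CPM. Set C held no EV library, so there the set and the vector cannot be told apart. In set A the single IL27v library had Junb at 281 CPM and the 9 EV libraries had it at 3.17 to 64.1 CPM. In an additive model of vector and condition with these sets as a term, none of the 10 genes was called by edgeR, with Junb at 1.30, Jund at 1.57, Ier2 at 0.76 and Jun at 0.66 (log2). When IL27v docetaxel replicate 1 was also left out, the estimates were -1.67 for Junb, -1.28 for Jund, -1.19 for Ier2 and -0.17 for Jun. In that fit set A held only EV libraries and set C only IL27v libraries. The vector could then be told from the sets only through set B, whose IL27v and EV libraries share no condition. The fit therefore does not settle the direction of the vector difference.

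The second result concerns the condition in which the vectors were compared. Without overlap, Junb, Jund, Ier2, Jun, Fosl1 and Egr1 were lower in IL27v than in EV libraries in media, which held for 6 of the 10 members and for 16.6% of all tested genes. The same 6 were higher without overlap in at least 1 exposed condition, a turn that 11.2% of tested genes showed. Fos, Fosb, Jun, Junb, Jund and Ier2 were higher without overlap in each of the 5 exposed conditions, 6 of 10 members where 1.28% of tested genes did so.

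Egr1 and Fosl1 show the turn in genes that were not called overall. Fosl1 stood at 21.4 and 78.2 CPM in media in IL27v libraries, against 249 and 208 CPM in EV libraries, and at 256 and 331 CPM with cabozantinib plus IL-27 in IL27v, against 89.0 and 50.2 CPM in EV libraries. With docetaxel it stood at 409 and 359 CPM in IL27v and 323 and 442 CPM in EV libraries, and these overlapped. Egr1 stood at 67.9 and 73.8 CPM in media in IL27v libraries, against 123 and 152 CPM in EV libraries. With cabozantinib plus IL-27 Egr1 stood at 149 and 194 CPM in IL27v and 63.9 and 101 CPM in EV libraries. In both conditions the libraries that stood low were those of set B.

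By edgeR, no member was called for the vectors within any of the 6 conditions, where 0.27% of tested genes were called with docetaxel (0.262% higher, 0.00818% lower), 0.00409% with cabozantinib plus IL-27 (all higher) and 0% in the other 4. At an unadjusted p under 0.05 there were 6 members in media (9.04% of tested genes), 5 with cabozantinib (5.46%), 5 with docetaxel (10%), 6 with anti-PD-L1 (3.41%), 7 with cabozantinib plus IL-27 (6.08%) and 3 with IL-27 (2.67%). DESeq2 called 3 members in media (4.25% of the genes it gave an adjusted p), 3 with cabozantinib (0.939%), 1 with docetaxel (4.27%), 4 with cabozantinib plus IL-27 (2.31%) and 0 with anti-PD-L1 (0.219%) or IL-27 (0.0853%). The Junb difference was -5.02 ± 1.11 in media (log2; edgeR adjusted p = 0.16), 2.27 ± 0.96 with docetaxel (0.43) and 6.51 ± 1.17 with cabozantinib plus IL-27 (0.11). The test of whether the vector difference varied over the 6 conditions called no member by edgeR, and 0% of all genes. It gave 6 members at an unadjusted p under 0.05 (5.41% of tested genes), and DESeq2 called 5 (3.42%). Its edgeR adjusted p was 0.16 for Junb, 0.17 for Fosl1, 0.21 for Ier2, 0.24 for Jun, 0.28 for Jund and 0.92 for Egr1.

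**Figure D3:**
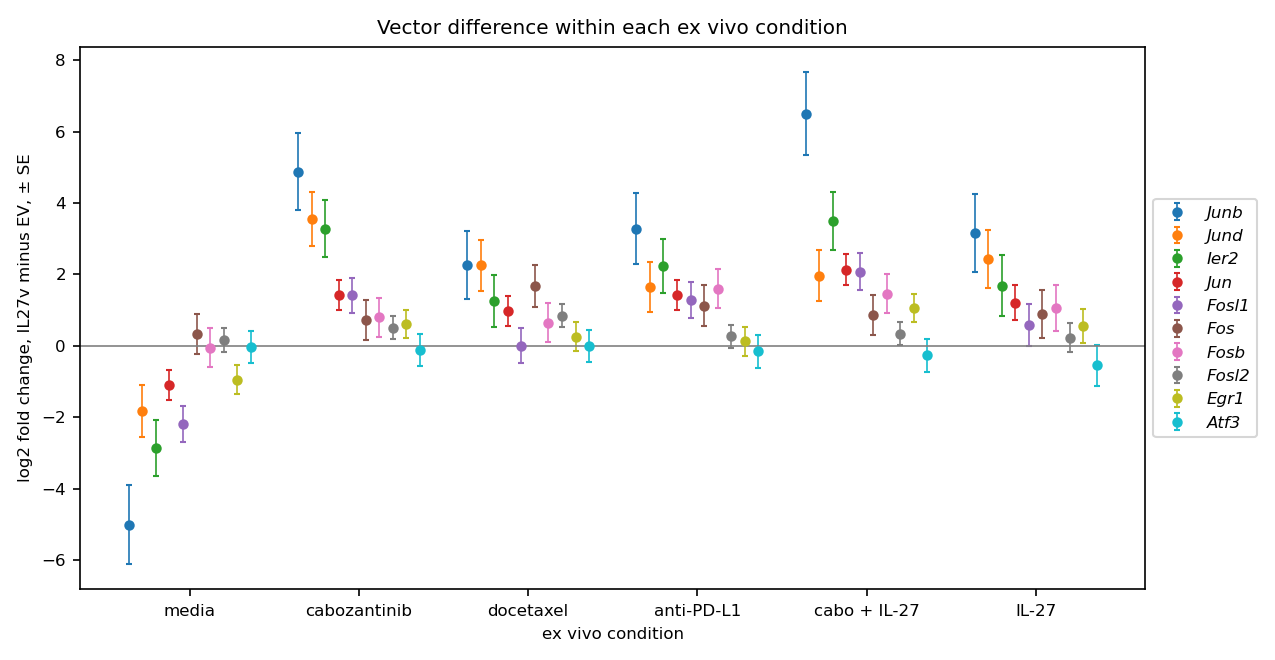
Log2 fold change of IL27v against EV with its standard error (vertical axis) within each ex vivo condition (horizontal axis), 1 colour for each of the 10 genes. In media Junb lies at -5.02 and Ier2 at -2.87, whereas in the other 5 conditions both lie above 0.

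The third comparison set docetaxel against media, averaged over both vectors. Junb, Jund, Ier2, Jun and Fosl1 rose with docetaxel, 5 of the 10 genes, where edgeR called 1.79% of tested genes, 1.76% as higher. The other 5 did not pass the test. The median log2 fold change was 1.60 over the 10 genes and 0.00 over all genes tested.

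Junb stood at 281 and 182 CPM with docetaxel in IL27v libraries, against 0.267 and 0.821 CPM in media. In EV libraries it stood at 32.2 and 64.1 CPM with docetaxel, against 4.95 and 30.4 CPM in media. The docetaxel libraries were the higher ones in both vectors. The averaged log2 fold change of Junb was 5.09 ± 0.78 (edgeR adjusted p = 0.0068). For Jund, at 104 and 30.2 CPM with docetaxel and 0.832 and 0.642 CPM in media in IL27v and at 9.40 and 18.6 CPM with docetaxel and 1.31 and 3.93 CPM in media in EV libraries, it was 4.46 ± 0.56 (edgeR adjusted p = 0.0043). Ier2 rose by 3.84 ± 0.58 (0.0068), Jun by 1.91 ± 0.30 (0.0073) and Fosl1 by 1.85 ± 0.36 (0.018), as log2 fold changes with edgeR adjusted p. The members that did not pass were Fosb at 1.36 (0.086), Fos at 0.90 (0.30), Egr1 at 0.76 (0.21), Fosl2 at 0.44 (0.37) and Atf3 at 0.43 (0.52), by the same measures.

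The EV libraries of both conditions belong to set A, so the comparison within EV stays within 1 set. The trend of levels with GC content still differed between them. At the GC content of Jund it was -0.61 and -0.14 in EV media and 0.26 and 0.92 in EV docetaxel libraries (log2). Its part in the contrast within EV was not tested. There the docetaxel libraries lay above the media libraries without overlap for Junb, Jund, Ier2, Jun, Fosl1 and Fosb, 6 of 10 members where 17.3% of tested genes did so. Fosb stood at 25.1 and 30.5 CPM with docetaxel in EV, against 11.1 and 16.5 CPM in media, and Ier2 at 20.2 and 39.9 CPM with docetaxel in EV, against 3.54 and 14.0 CPM in media. Fos, at 18.4 and 14.9 CPM with docetaxel and 11.9 and 16.5 CPM in media, overlapped, as did Egr1, Fosl2 and Atf3. Within IL27v all members but Atf3 lay above media without overlap, where 23% of tested genes did so, and 8% of tested genes did so in both vectors. Within EV libraries edgeR called none of the 10 genes and 0% of all genes (adjusted p = 0.82 for each of Junb, Jund, Ier2, Jun and Fosl1), with log2 fold changes of 1.45 ± 0.93 for Junb, 2.42 ± 0.72 for Jund, 1.77 ± 0.75 for Ier2, 0.88 ± 0.42 for Jun and 0.75 ± 0.49 for Fosl1. The count at an unadjusted p under 0.05 was 2, Jund and Ier2 (2.94% of tested genes), and DESeq2 was not run on this contrast.

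Within IL27v libraries, where media belongs to set B and docetaxel to sets A and C, 5 members were called by edgeR where 2.79% of tested genes were. Their log2 fold changes were 8.73 ± 1.30 for Junb, 6.5 ± 0.87 for Jund, 5.90 ± 0.91 for Ier2, 2.95 ± 0.53 for Fosl1 and 2.94 ± 0.45 for Jun. There docetaxel and the set cannot be told apart. No member, and 0% of all genes, was called in an additive model without the 5 libraries of set B, in which Junb was at 0.92 and Jund at 2.25 (log2). The averaged calls were lost in part or in full when EV media replicate 1 or IL27v media replicate 1 was left out, in fits with 1 media library left under that vector. Fosl1 also lost its call in some fits without other libraries. The log2 fold changes stayed positive when each of the 23 libraries was left out in turn, at 4.62 to 6.01 for Junb, 3.80 to 4.96 for Jund, 3.43 to 4.57 for Ier2, 1.70 to 2.08 for Jun and 1.51 to 2.46 for Fosl1. The highest edgeR adjusted p was 0.10 for Junb, Jund and Ier2, 0.13 for Jun and 0.16 for Fosl1. Keratinocyte markers moved with docetaxel, with 3 of 11 called higher and sums of 7.06 to 4440 CPM with docetaxel and 5.62 to 20.8 CPM in media. Both high sums, 4440 and 4160 CPM, were those of the IL27v docetaxel libraries. Of 10 endothelial markers, Egfl7 (2.45 ± 0.49, edgeR adjusted p = 0.02) and Tie1 (2.16 ± 0.51, 0.043) were called higher with docetaxel and none lower, with sums of 222 to 425 CPM with docetaxel and 38.9 to 301 CPM in media. The part of these markers in the result was not tested.

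The other 4 exposures were set against media in the same way. By edgeR none of the 10 genes was called for cabozantinib, anti-PD-L1 or IL-27 (0% of tested genes in each) or for cabozantinib plus IL-27 (0.00409% of tested genes). At an unadjusted p under 0.05 there were 4 members for cabozantinib (10.5% of tested genes), 5 for anti-PD-L1 (5.85%), 7 for IL-27 (11.9%) and 3 for cabozantinib plus IL-27 (4.47%). DESeq2 called 3 for cabozantinib (2.04%), 3 for anti-PD-L1 (0.56%), 4 for IL-27 (3.54%) and 0 for cabozantinib plus IL-27 (0.294%). Junb had log2 fold changes of 3.08 ± 0.71 for cabozantinib (edgeR adjusted p = 0.30), 2.96 ± 0.71 for anti-PD-L1 (0.56), 3.42 ± 0.76 for IL-27 (0.19) and 1.63 ± 0.69 for cabozantinib plus IL-27 (0.88). These exposures share their media libraries with each other and with docetaxel. For all 4 the Junb estimate was above 0 within IL27v libraries and below 0 within EV libraries.

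The same contrasts were made within each vector. In IL27v libraries, 5 members were called for cabozantinib (1.88% of tested genes), 5 for anti-PD-L1 (0.867%), 4 for cabozantinib plus IL-27 (0.904%) and none for IL-27 (0%; 7 at an unadjusted p under 0.05, as were 7.3% of tested genes, DESeq2 not run on this contrast). Junb had log2 fold changes of 8.03 ± 1.26 for cabozantinib, 7.12 ± 1.21 for anti-PD-L1, 7.40 ± 1.23 for cabozantinib plus IL-27 and 7.51 ± 1.28 for IL-27 against the IL27v media libraries. In EV libraries edgeR called no member for any exposure, where it called 0.00409% of tested genes for cabozantinib plus IL-27 and 0% for the other 4, so the counts of members stand at the background. At an unadjusted p under 0.05 there were 0 members for cabozantinib (1.82% of tested genes) and anti-PD-L1 (1.41%), 4 for cabozantinib plus IL-27 (3.92%) and 1 for IL-27 (5.21%), and DESeq2 was not run. Those 4, Junb, Fosl1, Ier2 and Jun, were lower than in media, and the 1 for IL-27, Atf3, was higher. The EV log2 fold changes of Junb were -1.866 ± 0.95 for cabozantinib and -1.186 ± 0.93 for anti-PD-L1. They were -4.129 ± 1.055 for cabozantinib plus IL-27 and -0.676 ± 0.922 for IL-27. Junb with cabozantinib stood at 6.53 and 3.17 CPM in EV libraries, against 4.95 and 30.4 CPM in media. The IL27v media libraries are both of set B, and none of the other IL27v libraries is.

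The GC content of genes went with both main contrasts. For IL27v against EV, the median log2 fold change of tested genes was -0.09 in those with under 40% GC, 0.03 from 50 to 55%, 0.11 from 55 to 60%, 0.41 from 60 to 65% and 1.03 at 65% or more. For docetaxel against media the medians of the same bins were -0.48, 0.13, 0.66, 1.27 and 2.52, and the share of genes called was 17.1% in the highest bin and 0.167% in the lowest. All members but Atf3 exceeded the median of their own bin for the vectors. There the excess was 2.11 for Junb, 1.10 for Ier2, 0.90 for Fos and Jun, 0.81 for Fosb and 0.64 for Jund (log2), against 0.16 for Egr1 and -0.22 for Atf3.

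The GC trend also varied from library to library. At the GC content of Junb it ran from -1.75 to 1.03 on the log2 scale over the 23 libraries, while Junb itself ran from -4.03 to 3.77 around its mean. With each library's GC trend taken out by an offset, Junb rose with the IL-27 vector by 2.08 ± 0.32 (edgeR adjusted p = 0.0024), Ier2 by 1.14 (0.014), Jund by 0.93 (0.032), Jun by 0.86 (0.019) and Fos by 0.84 (0.047), and Fosb at 0.76 was not called (0.11). With that offset Junb rose with docetaxel by 3.76 (edgeR adjusted p = 0.01), Ier2 by 2.72 (0.01) and Jund by 2.46 (0.014), whereas Jun at 1.42 (0.079) and Fosl1 at 1.04 (0.07) were not called.

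**Figure D4:**
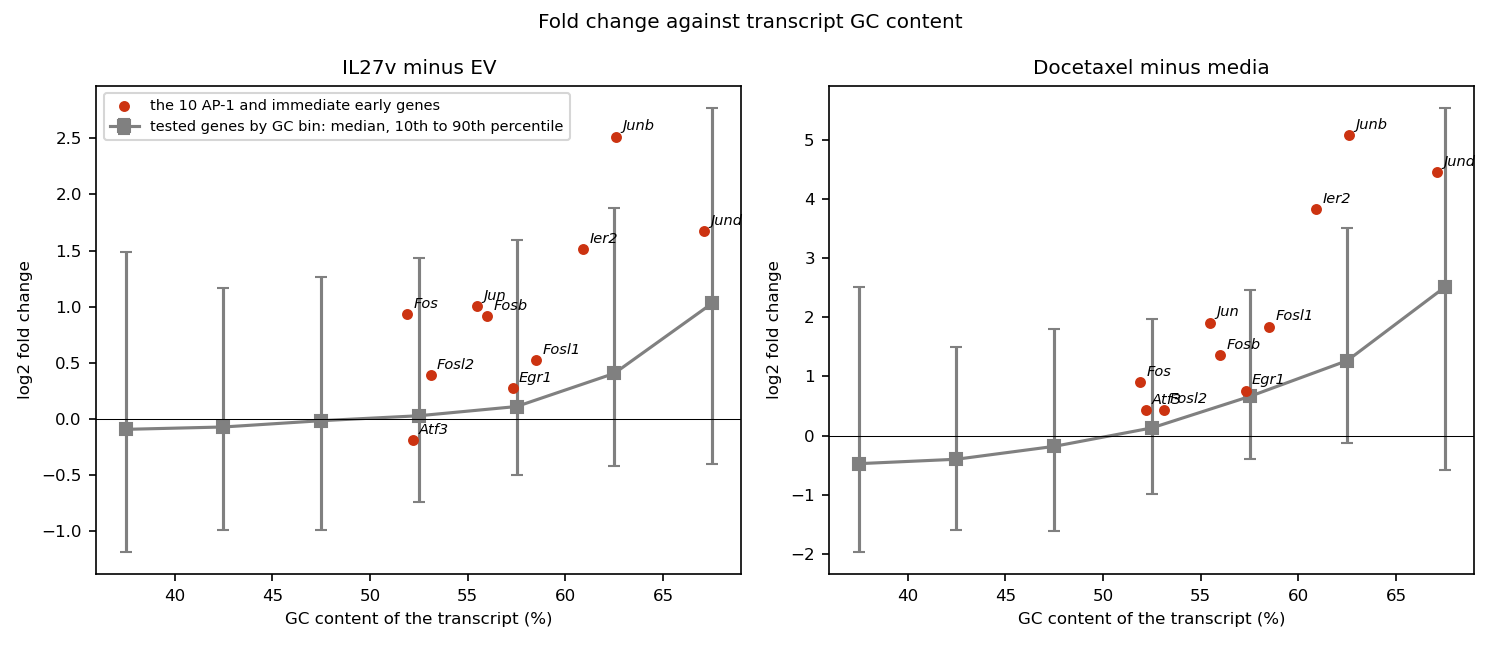
Log2 fold change (vertical axes) against transcript GC content in percent (horizontal axes) for IL27v against EV (left) and docetaxel against media (right), with grey squares for the median of all tested genes in each GC bin, bars for the 10th to 90th percentile, and red points for the 10 genes. Junb, at 62.6% GC, stands above the 90th percentile of its bin in both panels, whereas Jund, at 67.1% GC, lies within the bars.

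Other genes of the pathway were described by lists. Of 23 other immediate early genes, 5 rose with the IL-27 vector and none fell, with a median log2 fold change of 0.51. Klf4, a zinc finger factor of epithelial differentiation, averaged 31.0 ± 39.6 CPM in IL27v and 7.22 ± 2.58 CPM in EV libraries (SD, n = 11 and 12; log2 fold change 1.46 ± 0.23, edgeR adjusted p = 0.003). Ier3, a stress-response gene, averaged 694 ± 307 CPM in IL27v and 354 ± 200 CPM in EV libraries (1.01 ± 0.17, 0.0047), and Rhob, a small GTPase, 123 ± 69.6 CPM in IL27v and 65.5 ± 20.9 CPM in EV libraries (0.82 ± 0.16, 0.009). With docetaxel 8 of the 23 rose and none fell, with a median of 1.02, among them Ier3 (1.77 ± 0.29, edgeR adjusted p = 0.0087), Klf2 (2.17 ± 0.44, 0.02) and Dusp1, a phosphatase of MAP kinases (1.02 ± 0.22, 0.027).

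Among partners and upstream genes few were called. Of 22 other basic leucine zipper genes, Mafg, a small Maf protein, rose with the IL-27 vector (0.49 ± 0.11, edgeR adjusted p = 0.029) and Ddit3, the stress factor CHOP, fell (-1.11 ± 0.21, 0.0088), with a list median of 0.10. With docetaxel 1 of the 22 rose, Cebpb (2.72 ± 0.55, edgeR adjusted p = 0.02), whose transcript has 67.2% GC. None of 22 genes of MAP kinases and ternary complex factors was called for the vectors by edgeR, with a median of 0.13. The unadjusted p lay under 0.05 for 4 of them and for 3538 of all 24440 tested genes, and DESeq2 was not counted over this list. With docetaxel 1 gene of this list rose, the kinase Map2k2 (2.16 ± 0.49, edgeR adjusted p = 0.033, 60.4% GC).

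Reported AP-1 target genes were mixed. Of 21, 4 rose with the IL-27 vector and 1 fell, with a median of 0.38. Mmp3, a matrix metalloproteinase, averaged 227 ± 280 CPM in IL27v and 12.9 ± 14.4 CPM in EV libraries (4.07 ± 0.61, edgeR adjusted p = 0.0021), Plaur, the urokinase receptor, 113 ± 52.4 CPM in IL27v and 59.4 ± 31.7 CPM in EV libraries (0.99 ± 0.18, 0.0056), and Il11, a cytokine, 2.73 ± 3.88 CPM in IL27v and 0.387 ± 0.184 CPM in EV libraries (2.25 ± 0.45, 0.011). Spp1, which encodes osteopontin, averaged 253 ± 78.7 CPM in IL27v and 558 ± 199 CPM in EV libraries (-1.12 ± 0.21, 0.0081). With docetaxel 1 of the 21 rose, Plaur (1.39 ± 0.30, edgeR adjusted p = 0.027).

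Heat shock genes were read as a second stress response. Of 11, the inducible pair Hspa1a (26.9 ± 22.0 CPM in IL27v and 2.99 ± 1.63 CPM in EV libraries) and Hspa1b (91.2 ± 69.4 CPM in IL27v and 19.1 ± 7.81 CPM in EV libraries) rose with the IL-27 vector, by 2.60 ± 0.32 and 1.99 ± 0.23 (log2; edgeR adjusted p = 0.0012 for both). The 2 genes are near-identical copies, so the split of reads between them is uncertain. The median over the 11 was -0.02. Both also rose with docetaxel, Hspa1a by 3.33 ± 0.57 (edgeR adjusted p = 0.0099) and Hspa1b by 2.23 ± 0.40 (0.013), with no other gene of the 11 called and a median of 0.25. In the additive model with the sets as a term edgeR called no gene of any list, nor any other gene, for the vectors or for docetaxel.

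The genes whose pattern was most like each member were found by Pearson's r of log2(CPM + 1) over the 23 libraries among 13723 genes. The libraries share the GC trend and the division into sets, so these values are a description. Nearest to Junb were Irx1 (r = 0.973) and Map1s (0.969), to Ier2 Sf3b4 and Irx1 (0.973 each), to Jund Ier5l (0.957) and Hist1h2bc (0.937), to Jun Phlda1 (0.938) and Irx1 (0.931), and to Fosl1 Agap3 and Hyal2 (0.973 each). The remaining members had looser neighbours: Sema4a (0.863) for Fos, Phlda1 (0.81) for Fosb, Amotl2 (0.875) for Fosl2, Sik1 (0.855) for Egr1 and Trpv2 (0.845) for Atf3.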

How the data were processed

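Tumour RNA was sequenced by the authors from 23 libraries, and the values deposited are estimated counts per gene (StringTie), all of them whole numbers. Per the submitters' processing notes, the tools were cutadapt, HISAT2, StringTie and DESeq2, with the GRCm38 build; no version, setting or use of strand is given in the sources used here. Groups follow the sample titles. The libraries with ex vivo IL-27 share 1 name in their descriptions, so their columns were matched through titles and library names.

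One edgeR (4.0.16, R 4.3.3) quasi-likelihood fit of all 12 groups (TMM scaling, filterByExpr by group, 24440 of 55401 genes, 11 residual degrees of freedom, biological coefficient of variation 0.62) gave every contrast, with Benjamini-Hochberg adjustment over all genes tested and calls at an adjusted p under 0.05. It was tested on simulated data. With up to 2 libraries a group, precision within single conditions is low. CPM are TMM-scaled. Set B holds libraries with Ngp at 5 CPM or more, and set C those with summed muscle markers at 100 CPM or more and no Ngp. GC content, coordinates and sequences come from GENCODE M21 (GRCm38), which matched 55141 of 55401 identifiers.

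Members, lists and tests were chosen with earlier results of these data known. Named besides the 10 members are, per list, called genes up to the 3 with the smallest p in each direction, and the 2 most alike genes (the nearest alone for 5 members). Alternatives were DESeq2 (1.42.0) with its own size factors, no filter or 1 CPM in at least 4 libraries, a GC offset (lowess span 0.3), a replicate block, additive models, subsets, and leaving out each library.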

Additional observations from a re-analysis of the deposited data

Results flagged for a closer look

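In media, every IL27v library lay below every EV library for Junb, Jund, Ier2, Jun, Fosl1 and Egr1, and in at least 1 exposed condition every IL27v library lay above every EV library, which 11.2% of tested genes also showed. The test of the difference over the 6 conditions (interaction in the edgeR quasi-likelihood fit across all genes, Benjamini-Hochberg adjusted p, not a permutation test) gave p = 0.16 for Junb, 0.17 for Fosl1, 0.21 for Ier2, 0.24 for Jun, 0.28 for Jund and 0.92 for Egr1, so none passed the threshold. The media libraries of IL27v hosts are both in set B, those of EV hosts both in set A.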

How the results depend on the processing

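Alternatives were run on the 10 genes for the vector and docetaxel contrasts, and on their counts in all 13 tests. Without a filter, more genes were called in general: the members called, each beside the share of all genes, were 4 for cabozantinib (2.86%), 4 for anti-PD-L1 (1.53%), 2 for cabozantinib plus IL-27 (1.07%), 5 for IL-27 (3.3%) and 5 for the interaction (4.47%), and for the vectors 4 in media (all lower; 3.43%), 5 with cabozantinib (1.23%), 3 with docetaxel (3.13%), 3 with anti-PD-L1 (1.03%), 5 with the combination (1.69%) and 2 with IL-27 (0.688%). DESeq2 called 3 for cabozantinib, 3 for anti-PD-L1, 4 for IL-27 and 5 for the interaction, and for the vectors 3 in media (lower), 3 with cabozantinib, 1 with docetaxel and 4 with the combination. The cause of these differences was not tested. For docetaxel, 3 members were called with the GC offset (0.311% of all genes), and 3 with the replicate block added (0.213%). No member and 0% of all genes were called in the additive model, without set B and within EV libraries. The same held in the additive models with the sets, also less IL27v docetaxel replicate 1 or with the GC offset. For the vectors 4 were called in the additive model (2.73% of all genes), with Junb at 3.23 (edgeR adjusted p = 0.07). In each model with the sets 0 were called (0%, or 0.00409% with the GC offset). Without the set B libraries 6 were called, all higher (1.9%), where set C holds only IL27v libraries. Within IL27v libraries 5 were called for cabozantinib (1.88% of all genes), 5 for anti-PD-L1 (0.867%) and 4 for the combination (0.904%). With the sets as a term the vector estimate turned to -0.22 for Fosl1 and -0.17 for Egr1, and with the GC offset added to -0.31 and -0.17, with Egr1 at -0.10 for docetaxel. Without IL27v docetaxel replicate 1 as well, it was -1.10 for Fosl1, -0.17 for Jun, -1.67 for Junb, -1.28 for Jund, -0.65 for Egr1 and -1.19 for Ier2. That last fit could separate the vector from the sets only through set B, so it does not settle the direction. Without single libraries, the counts ran from 4 to 7 for the vectors, 0 to 6 for docetaxel, 0 to 2 for cabozantinib, 0 to 2 for anti-PD-L1, 0 to 4 for IL-27, 0 to 0 for the combination, 0 to 1 for the vectors in media, 0 to 2 with the combination, 0 to 2 for the interaction, and stayed at 0 for the vectors in the other 4 conditions. In leave-one-out fits of a group with a lone library, that library is assumed to vary like the others. The shares of all genes called in the leave-one-out fits are not given here, so those counts of members stand without a background. Without the single IL27v library with IL-27 the difference in that condition has no value. Equal replicate numbers did not pair the libraries: of 55 pairs of groups, 15 had deviations correlated over 0.1 (range -0.74 to 0.56). With the replicate block, 5 members were called for the vectors, Fos missing at 0.88 (edgeR adjusted p = 0.053), and no other count moved by more than 1.5 times. Over single members, apart from leave-one-out, 192 values kept direction and side of the threshold, 54 lost it, 3 gained it and 11 reversed. Low counts, 18 to 132, limit Junb, Jund and Ier2 in the IL27v media libraries. Their depth was ordinary, with 65846816 and 68415610 counts in total against a median of 68457697 over the 23 libraries.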
